A study of Mus musculus with 24 samples.

Results

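This report compares 2 deletions in mouse embryos, called Hoxa2PTE-42kb-del and Hoxa2PTE-36kb-del, by promoter capture Hi-C. The 4 libraries compared, 2 with the 42kb deletion and 2 with the 36kb deletion, were taken by their group labels out of 24 libraries in 12 groups. All 4 came from PA2, the usual abbreviation for the second pharyngeal arch, at stage E11.5, and the labels name the cells as cranial neural crest cells. The labels give no other allele, treatment or strain for these groups, and sorting by fluorescence is stated only for Wnt1::Cre;ROSARFP and Ezh2cKO embryos. The 2 libraries of wild-type (WT) PA2 at the same stage, from the same cell type label, are given beside the 4 libraries as levels. So are 2 libraries of the 36kb deletion from Md at E11.5. Md is the usual abbreviation for the mandibular process. No sorting step is stated for the deletion libraries, so their cell preparation may differ from that of WT. A difference from WT can thus not be put down to the deletion alone. The labels explain neither PTE nor the position of either deletion. The assay reads DNA contacts and no RNA, so the labelled cell type was not checked against expressed markers.

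In promoter capture Hi-C, cross-linked chromatin is cut with HindIII and religated, and ligation products that hold a promoter fragment, the bait, are captured. A call is a pair of fragments whose CHiCAGO score, a measure of contact above the background expected at that distance, is at least 5 in that library. Hoxa2 encodes a homeodomain transcription factor that gives second arch neural crest its identity. The genes of a Hox cluster lie side by side and are held silent by Polycomb repressive complexes where they are not used, and such promoters often contact each other. Skap2 is the neighbour of the Hoxa cluster on the anterior side, and Evx1 lies beyond Hoxa13. Each library's calls are scored on the undeleted reference, so distances across a deletion are those of the reference genome.

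The Hoxa2 promoter sits in the bait at chr6:52162863-52166906 (GRCm38), and Cbx3 and Hnrnpa2b1, which face away from each other, share the bait at chr6:51469286-51475137. These 3 promoters are shown because the locus results turn on their baits: Hoxa2 for its calls to the distal region, and Cbx3/Hnrnpa2b1 for calls to the same side of it. Each line gives the 250 bases before the RefSeq start (GRCm38.p6), 5′ to 3′ on the gene's strand, and capitals mark matches to TGATNNAT on either strand, a site shape bound by Hox and Pbx proteins together.
Hoxa2, chr6:52164832-52165081, minus strand: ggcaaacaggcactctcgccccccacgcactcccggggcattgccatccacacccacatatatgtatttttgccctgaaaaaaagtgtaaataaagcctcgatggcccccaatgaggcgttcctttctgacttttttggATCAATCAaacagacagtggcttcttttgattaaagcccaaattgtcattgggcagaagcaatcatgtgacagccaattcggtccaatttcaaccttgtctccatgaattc
Cbx3, chr6:51470366-51470615, plus strand: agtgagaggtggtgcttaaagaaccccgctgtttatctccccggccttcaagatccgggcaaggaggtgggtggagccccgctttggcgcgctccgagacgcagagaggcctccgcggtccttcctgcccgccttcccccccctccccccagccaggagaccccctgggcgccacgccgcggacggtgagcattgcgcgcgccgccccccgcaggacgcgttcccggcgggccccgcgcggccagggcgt
Hnrnpa2b1, chr6:51469895-51470144, minus strand: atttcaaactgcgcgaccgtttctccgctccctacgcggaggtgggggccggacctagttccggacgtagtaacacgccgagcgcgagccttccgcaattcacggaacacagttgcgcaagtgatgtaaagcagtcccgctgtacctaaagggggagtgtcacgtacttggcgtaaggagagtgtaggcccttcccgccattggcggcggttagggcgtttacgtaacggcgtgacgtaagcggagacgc
The Hoxa2 window held 1 match, on the opposite strand (TGATTGAT), and the other windows shown held none. Of 32851 promoter windows of this length in the table, 7.68% held the motif. The HindIII site AAGCTT was in none of the windows shown and in 6.22% of all windows. The Hoxa2 window had 6 CG dinucleotides, equal to the median of 6.0 over all windows, whereas those of Cbx3 and Hnrnpa2b1 had 29 each.

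The 4 libraries listed 142284 to 158363 calls, of which 3.47% to 4.22% joined different chromosomes, and the WT libraries of PA2 listed 169967 and 171346. Calls within a chromosome (cis calls) numbered 164459 and 165888 in WT, 136997 and 148666 with the 36kb deletion and 147696 and 152360 with the 42kb deletion, so values were divided by them. The median cis distance was 415.1 and 419.2 kb with the 36kb deletion and 389.4 and 398.0 kb with the 42kb deletion. Replicates shared calls only a little more than libraries of different deletions did: the Jaccard index, the share of cis pairs found in both of 2 libraries out of those found in either, was 0.277 for the 36kb replicates, 0.288 for the 42kb replicates and 0.264 to 0.275 across the deletions. Read depth was unknown. Each library carries its own batch label, so library and batch cannot be told apart. Titles of the 42kb libraries lack the BioRep tag that all other titles hold. Any difference between these sets beyond the deletion cannot be told apart from it. A two-sided exact permutation test of 2 against 2 libraries cannot give a p below 0.333, so counts of single regions are given by library and only the fit over all baits or bins was tested.

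The calls themselves showed 2 gaps, 1 inside the other. Of 100 fragments of the chromosome 6 window, which runs from 50 Mb to beyond Creb5, that were in calls of both WT libraries of PA2 and of at least 14 of the 18 libraries without a deletion, 9 were in no call of either 36kb library and 10 in no call of either 42kb library. With the 36kb deletion, 7 of them formed 1 run, chr6:51173834-51212855, of 39.0 kb. With the 42kb deletion, the fragments without calls lay between 51167210 and 51213428, a span of 46.2 kb. Inside that span 1 such fragment, chr6:51180767-51183201, still had 1 call in 42kb replicate 1, from the Hoxa4 bait. Spans are counted in whole HindIII fragments and are longer than the sizes in the labels. No bait lies in either span.

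The gaps differed mainly by a short stretch on the side far from Hoxa2, chr6:51167210-51173833, of 6.62 kb, whose 3 fragments of that set were called with the 36kb deletion and not with the 42kb deletion. Fragment chr6:51170426-51171571 was in 13 and 14 calls in WT, 6 and 8 with the 36kb deletion and 0 and 0 with the 42kb deletion. Fragment chr6:51171572-51173833 was in 13 and 14 calls in WT, 4 and 5 with the 36kb deletion and 0 and 0 with the 42kb deletion. Fragment chr6:51167210-51170010 was in 10 and 10 calls in WT, 2 and 3 with the 36kb deletion and 0 and 0 with the 42kb deletion. At the other end, fragment chr6:51212856-51213428 was in 0 and 1 calls with the 36kb deletion and in none with the 42kb deletion. The 3 fragments of the stretch were called in both libraries of the 36kb deletion in Md too, in 1 to 5 calls each. The stretch is below called the 36kb-only stretch, the segment from there to 51213428 the shared core, the side below 51167210 the far side, and the side between the shared core and Skap2 the near side. The stretch lies 991.0 to 997.6 kb from the Hoxa2 start.

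In 100 kb bins of other ends, tested over all libraries with limma, the bin that holds the stretch, chr6:51100001-51200000, fell with the 42kb deletion against the 36kb deletion. It held 128 and 120 calls in WT, 15 and 17 with the 36kb deletion, and 1 and 0 with the 42kb deletion. The log2 change was -4.32 (SE 0.27, adjusted p = 2.47e-10), a size that depends on the 0.5 added to each count and was -2.95 with 2 added. This bin reaches into the 42kb gap, which was drawn from the same calls, so its fall is no separate support for the gap. It was the only bin of the chromosome 6 window past the threshold of 0.05, where 1.95% of all 7800 bins tested passed, 0.91% being higher and 1.04% lower with the 42kb deletion. The adjoining bin, chr6:51200001-51300000, was nearly empty in both deletions, with 1 and 1 calls against 1 and 0, and 42 and 36 in WT (log2 change -0.86, SE 0.42, adjusted p = 0.327). The bin chr6:50900001-51000000 on the far side held 6 and 6 calls with the 36kb deletion and 10 and 18 with the 42kb deletion (log2 change 1.03, SE 0.70, adjusted p = 0.514).

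With the 36kb deletion the Hoxa baits still called the short stretch, and with the 42kb deletion none did. Over the 14 baits of the Hoxa cluster, Evx1 included, calls to it numbered 42 and 41 in WT, 14 and 14 with the 36kb deletion and 0 and 0 with the 42kb deletion. The stretch was drawn from the fragments without calls with the 42kb deletion, so the zeros follow from its definition and are a description. The scores of the 36kb calls ran from 5.27 to 31.08 in replicate 1 and from 5.05 to 24.86 in replicate 2, so they were not all near the threshold of 5. In WT the stretch was called by 13 of the 14 baits in both libraries, with the 36kb deletion by 4 in both libraries and by 7 in at least 1.

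The baits that called it in both 36kb libraries included Hoxa2 with 5 and 4 calls, the bait of the noncoding gene 5730596B20Rik (chr6:52174760-52177869) with 3 and 2, and the bait that holds the starts of Hoxa3 and Hoxa7 with 3 and 3. In WT, Hoxa2 had 5 and 5 calls there, the 5730596B20Rik bait 5 and 5 and the Hoxa3/Hoxa7 bait 3 and 3. By count, Hoxa2 and the Hoxa3/Hoxa7 bait had nearly as many calls there with the 36kb deletion as in WT, and the 5730596B20Rik bait fewer. Their scores there were mostly lower than in WT. At chr6:51170426-51171571 Hoxa2 scored 144.1 and 33.0 in WT and 31.08 and 24.86 with the 36kb deletion. The Hoxa3/Hoxa7 bait scored 20.64 and 21.22 against 13.0 and 8.57 there. At chr6:51167210-51170010 it went the other way, with 5.85 and 9.01 in WT against 10.43 and 9.3. Among PA2 libraries, 6 baits called the stretch in both WT libraries and in no deletion library, among them Hoxa4, Hoxa5, Mir196b, Hoxa11 and Evx1. In Md with the 36kb deletion, the Hoxa3/Hoxa7 bait had 4 and 4 calls there and Hoxa2 had 0 and 0.

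**Figure D1:**
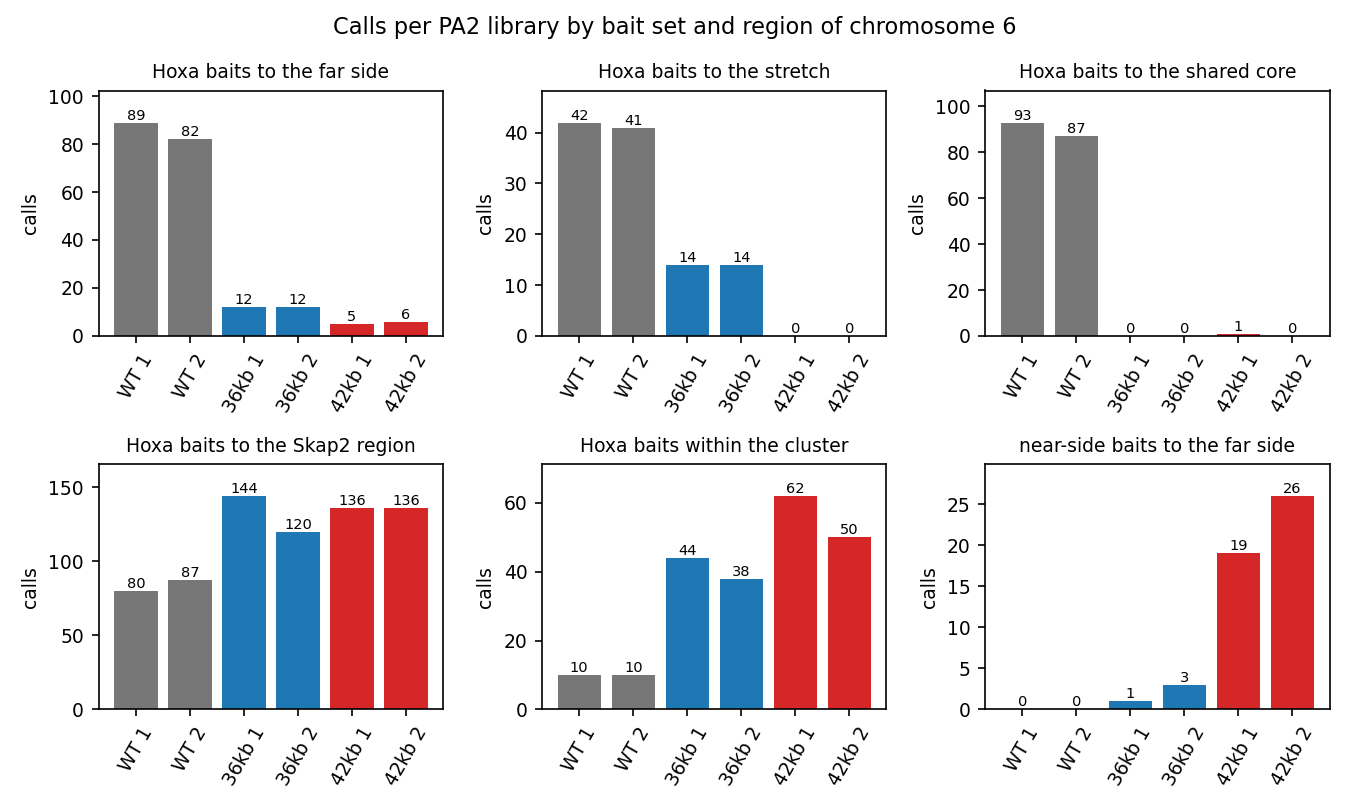
Calls in each PA2 library (bars from 0, number above each bar) from the 14 Hoxa baits to 5 regions of chromosome 6, and from the 6 near-side baits to the far side. Calls to the stretch stand at 14 and 14 with the 36kb deletion and 0 and 0 with the 42kb deletion, and near-side calls to the far side at 1 and 3 against 19 and 26.

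The total of the Hoxa2 bait was lower with the 42kb deletion in both libraries, but the difference did not pass the test. Hoxa2 had 64 and 64 cis calls in WT, 23 and 17 with the 36kb deletion (mean 20.0 ± 4.24 SD, n = 2) and 11 and 10 with the 42kb deletion (mean 10.5 ± 0.71 SD, n = 2). Per 10000 cis calls these were 1.68 and 1.14 against 0.745 and 0.656, with no overlap. The log2 change was -0.96 (SE 0.34), with an adjusted p of 0.213 from limma over all 10344 baits.

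By region, the Hoxa2 calls showed where the libraries parted. To the far side, Hoxa2 had 52 and 52 calls in WT, 6 and 5 with the 36kb deletion, and 0 and 2 with the 42kb deletion. To the shared core it had 5 and 6 in WT and 0 in each of the 4 deletion libraries. To the near side it had 2 and 1 in WT, 3 and 2 with the 36kb deletion and 3 and 1 with the 42kb deletion. Calls to the Skap2 region, absent in both WT libraries, numbered 8 and 5 with the 36kb deletion and 8 and 7 with the 42kb deletion. The groups thus overlapped on the near side and in the Skap2 region, and did not overlap on the far side or in the stretch.

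Hoxa2 had 10 partner fragments in both 36kb libraries, 6 of them also in both WT libraries. It had 7 partner fragments in both 42kb libraries, of which 1 was also in both WT libraries. The strongest 36kb partners were the fragments of the stretch: chr6:51170426-51171571 scored 31.08 and 24.86, and chr6:51171572-51173833 scored 29.47 and 24.48. On the far side, chr6:50810990-50814239 was called in both 36kb libraries, with scores of 7.72 and 6.42, and in neither 42kb library. The 42kb far-side calls were both in replicate 2, at chr6:50942643-50943261 (score 6.09) and chr6:50997609-51000616 (score 8.01). The 1 partner kept in both WT libraries and all 4 deletion libraries was chr6:51467250-51469285, beside the Cbx3/Hnrnpa2b1 bait. It scored 5.07 and 5.46 in WT, 11.53 and 6.97 with the 36kb deletion and 9.47 and 6.92 with the 42kb deletion; a score is relative to its own library.

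Hoxa2 calls at the Skap2 promoter fragment itself, chr6:52010940-52014873, were in all 4 deletion libraries and in neither WT library. A call to the bait of Tax1bp1, 548.8 kb on the other side of Hoxa2, was in both 36kb libraries (scores 5.15 and 11.97) and in neither 42kb library. Within the Hoxa cluster, Hoxa2 had no call in any PA2 library shown, whereas Md with the 36kb deletion had 17 and 10.

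**Figure D2:**
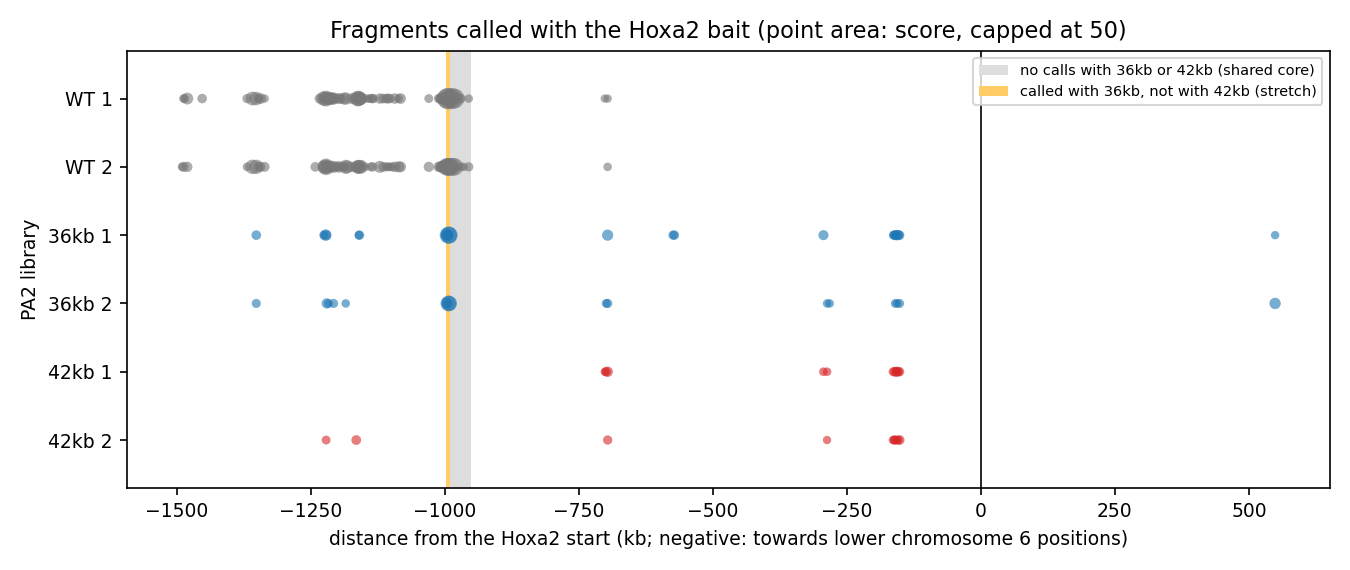
Fragments called with the Hoxa2 bait in the 6 PA2 libraries by distance from the Hoxa2 start in kb, with point area following the score up to 50. The 36kb rows keep 5 and 4 points in the yellow stretch and 6 and 5 on its far side, whereas the 42kb rows have 0 and 0 and then 0 and 2.

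The other Hoxa baits had few calls left to the far side. All 14 Hoxa baits together had 89 and 82 such calls in WT, 12 and 12 with the 36kb deletion and 5 and 6 with the 42kb deletion. The 42kb calls came from the Hoxa3/Hoxa7 bait, apart from the 2 of Hoxa2 in replicate 2. The Hoxa3/Hoxa7 bait had 3 and 2 in WT, 3 and 5 with the 36kb deletion and 5 and 4 with the 42kb deletion, which overlapped. The 5730596B20Rik bait had 12 and 8 in WT and 0 in each deletion library.

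Promoters on the near side differed the other way and called the far side mainly with the 42kb deletion. The 6 near-side baits, which lie between the shared core and Skap2, had 0 and 0 far-side calls in WT, 1 and 3 with the 36kb deletion and 19 and 26 with the 42kb deletion. With the 36kb deletion in Md they had 2 and 1. The 42kb calls reached 15 and 18 fragments, from 84.1 kb to 512.0 kb beyond the stretch, with scores up to 14.22 and 14.72. Most scored lower: at a score of at least 7, 5 and 7 calls were left with the 42kb deletion and 0 and 0 with the 36kb deletion. The groups did not overlap, and all 6 baits fell under the mean of 5 calls needed for the fit, so the difference was not tested.

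The bait shared by Cbx3, which encodes the heterochromatin protein HP1 gamma, and Hnrnpa2b1, an RNA-binding protein gene, took the most of them. It had 0 and 0 far-side calls in WT, 0 and 1 with the 36kb deletion and 8 and 12 with the 42kb deletion. In the stretch the same bait had 1 and 2 calls with the 36kb deletion, 0 and 0 in WT and 0 and 0 with the 42kb deletion. All its cis calls together numbered 4 and 3 in WT, 1 and 7 with the 36kb deletion and 8 and 13 with the 42kb deletion.

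The other near-side baits had smaller numbers, and those of Gm32479 and the last bait were in 42kb replicate 2 alone. The bait that holds Mir148a (chr6:51268562-51279346) had 0 and 0 far-side calls with the 36kb deletion and 3 and 5 with the 42kb deletion. Nfe2l3, a gene of a transcription factor related to NRF2, had 1 and 1 against 5 and 2. Snx10, which encodes a sorting nexin of endosomes, had 0 and 1 against 3 and 3. The bait of the noncoding gene Gm32479 had 0 and 0 against 0 and 3, and the bait at chr6:51620625-51625619 had 0 and 0 against 0 and 1. None of these 5 had a far-side call in WT.

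Several far-side fragments called from the near side were Hoxa2 partners in WT. Hoxa2 had 52 and 52 far-side calls in WT. How many fragments would coincide in any case was not tested, so those below are examples. Fragment chr6:50942643-50943261, which scored 25.83 and 28.65 with Hoxa2 in WT, was called by the Cbx3/Hnrnpa2b1 bait in both 42kb libraries with scores of 8.98 and 6.11. Fragment chr6:50810990-50814239 scored 17.87 and 20.84 with Hoxa2 in WT and 6.0 and 7.54 with Cbx3/Hnrnpa2b1 with the 42kb deletion. Fragment chr6:51003543-51004626 scored 23.3 and 19.5 with Hoxa2 in WT and 6.41 and 8.03 with Cbx3/Hnrnpa2b1 with the 42kb deletion. With the 36kb deletion, the Cbx3/Hnrnpa2b1 bait called none of these 3 fragments in PA2, and in Md it called 1 of them in replicate 1, chr6:50810990-50814239 (score 6.04).

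Closer to the cluster the deletions were nearer to each other in number than to WT. Calls of the 14 Hoxa baits to the Skap2 region, from the near side to the cluster, numbered 80 and 87 in WT, 144 and 120 with the 36kb deletion and 136 and 136 with the 42kb deletion. Calls of these baits to fragments within the cluster, Evx1 included, numbered 10 and 10 in WT, 44 and 38 with the 36kb deletion and 62 and 50 with the 42kb deletion; a call between 2 of these baits counts at both. The Skap2 counts overlapped, and the counts within the cluster did not. Calls beyond the cluster, to the end of the window, numbered 78 and 61 with the 36kb deletion and 69 and 80 with the 42kb deletion, and overlapped.

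Taking each Hoxa bait's total, 0 of 14 passed the adjusted p of 0.05, where 0.425% of all baits tested did. At an unadjusted p under 0.05, limma gave 1 of the 14, Hoxa2, and 1312 of all 10344 baits (12.7%). The median log2 change over the 14 was -0.08, against 0.01 over all baits tested. In 7 of the 14 the 2 deletions did not overlap in calls, where 32.8% of all baits tested did not. The range of log2 changes was -0.96 for Hoxa2 to 0.69 for Hoxa10.

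Among the middle baits, Hoxa4 had 24 and 15 with the 36kb deletion and 26 and 19 with the 42kb deletion, which overlapped. Hoxa5 had 19 and 26 against 19 and 22, and Hoxa6 27 and 20 against 21 and 18. The Hoxa3/Hoxa7 bait had 31 and 32 in WT, 29 and 30 with the 36kb deletion and 26 and 25 with the 42kb deletion, a log2 change of -0.28 (SE 0.21, adjusted p = 0.639). The Mir196b bait (chr6:52229395-52231193) had 19 and 9 against 17 and 25.

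Among the posterior baits, Hoxa10 had 13 and 18 calls in WT, 9 and 7 with the 36kb deletion and 16 and 12 with the 42kb deletion. Its log2 change was 0.69 (SE 0.34, adjusted p = 0.409). Hoxa11 had 37 and 23 against 30 and 39, which overlapped. Hoxa13 had 19 and 21 against 22 and 24, and Evx1, a homeobox gene beside the cluster, 37 and 34 against 32 and 33. Hoxa10 to Hoxa13 pattern the posterior trunk and limbs.

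**Figure D3:**
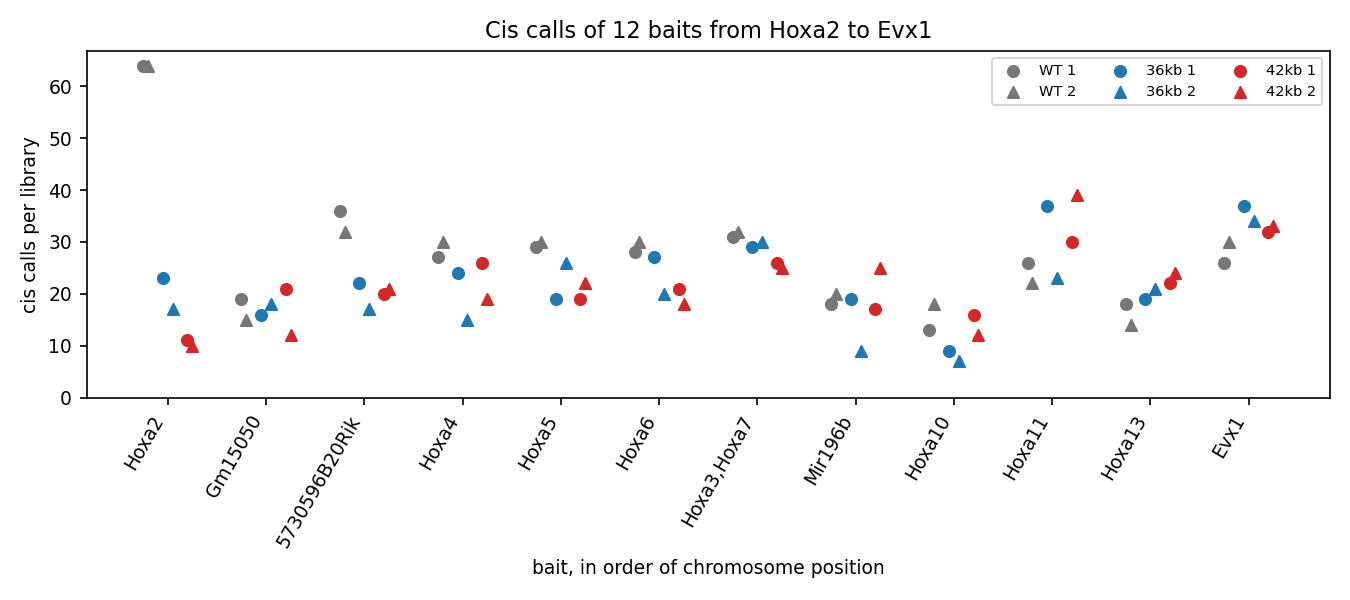
Cis calls per library of 12 baits from Hoxa2 to Evx1 in order of position, circles for replicate 1 and triangles for replicate 2. Hoxa2 stands at 64 and 64 in WT, 23 and 17 with the 36kb deletion and 11 and 10 with the 42kb deletion, and most other baits keep within a similar range in the 2 deletions.

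The window as a whole held a like share of the calls in both deletions. Calls with a bait in the window made up 0.293% and 0.231% of cis calls with the 36kb deletion, 0.265% and 0.256% with the 42kb deletion and 0.294% and 0.298% in WT. The 36kb libraries lay on both sides of the 42kb libraries. Outside the Hoxa stretch, the 5 tested baits of the window had log2 changes of -0.11 to 0.21, with adjusted p of at least 0.872. Skap2 itself, an adaptor protein gene, had 40 and 34 calls with the 36kb deletion and 39 and 33 with the 42kb deletion.

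Pairs that split the deletions were then listed. Of 374415 pairs called in at least 1 of the 4 libraries, 11875 (3.17%) were in both 42kb libraries and neither 36kb library, and 10135 (2.71%) in both 36kb libraries and neither 42kb library. Of 675 such pairs with a Hoxa bait or with both ends in the window, 25 (3.7%) were of the first kind and 24 (3.56%) of the second. These shares were close to those of the whole genome. Of the 24 pairs of the 36kb kind, 12 ended in the stretch, 11 of them from Hoxa baits. The stretch was drawn from fragments without calls with the 42kb deletion. Their number there thus follows in part from its definition and is a description. Of the 25 pairs of the 42kb kind, 6 joined a near-side bait to the far side, and 6 joined a Hoxa bait to another fragment of the cluster.

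Among the latter, Hoxa13 was joined to Hoxa4 (scores 6.34 and 7.91) and to Hoxa6 (6.26 and 7.49). Outside this kind, Skap2 was joined to Hoxa10 (5.82 and 6.71). The highest scores of the 42kb kind joined Hoxa13 to Hibadh, the gene of a valine-breakdown enzyme, at 12.45 and 11.59. Of these pairs, that of Hoxa4 with Hoxa13 was also called in 1 WT library and the others in none.

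Across the genome, few baits differed. With limma over 10344 baits, 15 were higher (0.145%) and 29 lower (0.28%) with the 42kb deletion at an adjusted p of 0.05. Among them 8 baits held no protein-coding name. In simulated data of this design the test found 24% of 2-fold changes and 80% of 4-fold changes, so smaller differences could pass unseen. The count rests in part on the spread estimated from the other groups. With the 4 libraries alone 2 baits passed, 2 higher and 0 lower with the 42kb deletion. The 6 PA2 libraries gave the same split, so no fall passed in either run. Of the named rises and falls below, only Hjurp passed in both. Without 36kb replicate 2 the count was 185, 135 of them higher with the 42kb deletion, and without 42kb replicate 2 it was 68, 13 of them higher. Without 36kb replicate 1 it was 36, with 21 higher and 15 lower.

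**Figure D4:**
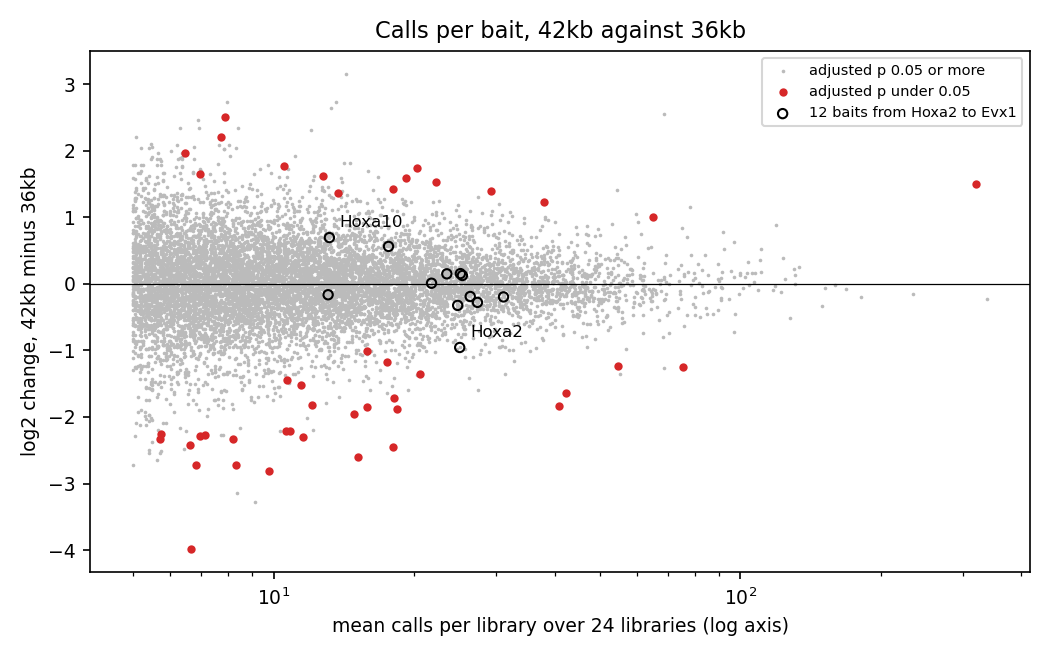
Log2 change of cis calls, 42kb minus 36kb, of each tested bait against its mean calls over the 24 libraries on a log axis; red points have an adjusted p under 0.05 and open circles are 12 baits from Hoxa2 to Evx1. The 44 red points lie away from the circles, which run from -0.96 for Hoxa2 to 0.69 for Hoxa10.

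Among the baits higher with the 42kb deletion, Hjurp, which encodes the chaperone that places the centromeric histone CENP-A, had by far the most calls. It had 444 and 444 in WT, 131 and 168 with the 36kb deletion and 422 and 461 with the 42kb deletion (log2 change 1.50, SE 0.19, adjusted p = 0.000475). The 42kb libraries were at the WT level and the 36kb libraries below it, and in Md with the 36kb deletion it had 204 and 224. Nearly all its calls spanned over 1 Mb in each group: 99.8% in WT, 99.7% with the 36kb deletion and 98.4% with the 42kb deletion. The median distances were alike too, at 83940, 84160 and 83810 kb. Lists of calls hold no reads, so mapping at this bait could not be checked, and its change is uncertain.

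Emx2, a homeobox gene of forebrain and urogenital development, rose as well. It had 33 and 34 calls in WT, 21 and 18 with the 36kb deletion and 59 and 51 with the 42kb deletion (log2 change 1.40, SE 0.27, adjusted p = 0.0218). The median distance of its calls was 749.2 kb with the 42kb deletion and 699.0 kb with the 36kb deletion, and 15 partners were in both 42kb libraries and neither 36kb library, against 1 the other way.

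Wnt1, a signalling ligand gene of the midbrain and dorsal neural tube, had 12 and 7 calls in WT, 6 and 6 with the 36kb deletion and 20 and 21 with the 42kb deletion. Its log2 change was 1.62 (SE 0.31, adjusted p = 0.0218). Of its 42kb calls 41.5% went to another bait, against 0.0% with the 36kb deletion, and without calls between 2 baits its log2 change was 0.89 and did not pass. Without any 1 of 3 libraries (42kb replicate 1 or 2, or 36kb replicate 1) it did not pass either.

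The bait shared by Abhd8 and Mrpl34, the latter a gene of a mitochondrial ribosomal protein, had 10 and 4 calls in WT, 3 and 3 with the 36kb deletion and 19 and 22 with the 42kb deletion (log2 change 2.51). Kctd5, an adaptor of a ubiquitin ligase, had 24 and 24 in WT, 5 and 9 with the 36kb deletion and 26 and 24 with the 42kb deletion (log2 change 1.75). Psme3, the gene of a proteasome activator, had 3 and 4 against 11 and 17. Lrp10, a member of the low-density lipoprotein receptor family, had 8 and 9 against 21 and 37, and Sbf1, a myotubularin-related gene, 5 and 14 against 32 and 22. Txnip, a thioredoxin-binding protein gene, had 1 and 2 against 13 and 6, and Ptprb, a phosphatase of vessel walls, 1 and 2 against 7 and 8. Of these 10 named baits, Hjurp and Abhd8/Mrpl34 passed without each of the 4 libraries in turn, and the other 8 lost their call without at least 1.

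Of the baits lower with the 42kb deletion, 2610008E11Rik had the smallest adjusted p of all. It had 9 and 10 calls in WT, 7 and 7 with the 36kb deletion and 0 and 0 with the 42kb deletion, which is at least 4.9-fold lower at the floor of 3 calls over both libraries (adjusted p = 2.26e-05). In Md with the 36kb deletion it had 8 and 7. Mptx1, a pentraxin gene, had 24 and 16 in WT, 5 and 4 with the 36kb deletion and 1 and 0 with the 42kb deletion (log2 change -2.59, adjusted p = 0.0034). The order of Mptx1 was thus WT, 36kb and 42kb, with no overlap between any of them.

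Glp1r, the receptor of glucagon-like peptide 1, went another way: it had 0 and 0 calls in WT, 6 and 15 with the 36kb deletion and 1 and 1 with the 42kb deletion (log2 change -2.81, adjusted p = 0.0218). In Md with the 36kb deletion it had 9 and 11, so all 4 libraries with the 36kb deletion were above the 2 PA2 WT libraries. Without any 1 of 42kb replicate 1, 42kb replicate 2 or 36kb replicate 2 it did not pass. Lrrc17, a gene of a secreted leucine-rich repeat protein, had 6 and 4 against 0 and 1. Mcts1, a translation factor gene, had 8 and 13 against 1 and 3, with 21 and 20 in WT. G0s2, an inhibitor of fat breakdown, had 9 and 8 against 1 and 2. Lrrc17 and G0s2 did not pass without 42kb replicate 1 or without 36kb replicate 1, and Mcts1 did not pass without 42kb replicate 1 or without 36kb replicate 2. With the 4 libraries alone, Mptx1 and 2610008E11Rik did not pass (limma adjusted p = 0.482 and 0.32). Nor did they with the 6 PA2 libraries (limma adjusted p = 0.225 and 0.0813).

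The other 4 of the 10 largest falls were members of gene families with near-identical copies, where mapping can split reads, and are uncertain. Mapping could not be checked at the falls given before them either. Olfr1132, Olfr1018 and Olfr911-ps1, of the odorant receptor family, had 16 and 12, 11 and 13, and 10 and 13 calls with the 36kb deletion, against 3 and 1, 1 and 4, and 2 and 2 with the 42kb deletion. Mrgprb2, a receptor of mast cells, had 16 and 30 against 2 and 7, with 20 and 24 in WT. Mrgprb2 did not pass without 42kb replicate 1. Olfr1132 did not pass without 42kb replicate 2 or 36kb replicate 1, Olfr1018 without any of 42kb replicate 1, 36kb replicate 1 and 36kb replicate 2, and Olfr911-ps1 without any 1 of the 4 libraries.

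**Figure D5:**
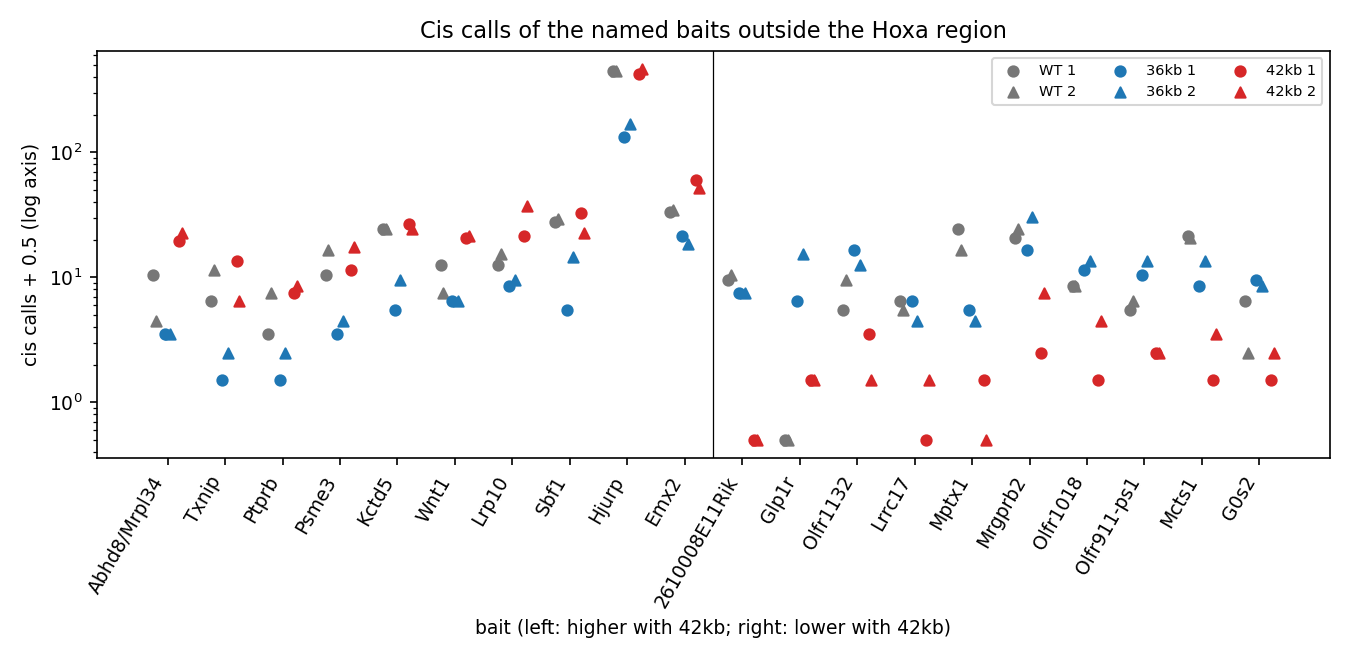
Cis calls plus 0.5 on a log axis in the 6 PA2 libraries for the 10 largest named rises (left) and the 10 largest named falls (right) with the 42kb deletion. For Hjurp the 42kb points, 422 and 461, lie at the WT points and the 36kb points below them, and for 2610008E11Rik both 42kb points are at 0 calls.

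Set against WT, the rises and the falls differed in which deletion lay further off. Of the 15 higher baits, the 42kb deletion was nearer to WT in 10, with median log2 changes from WT of -0.99 for the 36kb deletion and 0.37 for the 42kb deletion. Of the 29 lower baits, the 36kb deletion was nearer to WT in 24, with medians of 0.29 and -1.54. Both comparisons share the WT libraries, and these baits were chosen by the contrast itself, so the medians are a description.

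In 100 kb bins, 71 were higher and 81 lower with the 42kb deletion. With each library centred on its median the split was 92 higher and 64 lower. The balance turned on single libraries: it was 4 higher and 51 lower without 42kb replicate 1, 13 and 47 without 42kb replicate 2, 31 and 37 without 36kb replicate 1, and 324 and 111 without 36kb replicate 2.

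Called bins lay together in 7 runs of lower bins, on chromosomes 2, 4, 6, 7 and 12, and in 8 runs of higher bins. Runs were drawn from the called bins themselves. A high share of called bins inside a run thus follows from its definition and is a description. The run of lower bins with the most members was at chr6:129800001-133400000, where 9 of 25 tested bins fell, against 1.04% of all bins. Calls there summed to 525 and 490 in WT, 418 and 461 with the 36kb deletion and 266 and 264 with the 42kb deletion. The bait of Klra17, of the natural killer receptor family, lies there and had 68 and 111 against 34 and 43. The Olfr1132 bait lies in the run of lower bins on chromosome 2. The caution above on mapping in gene families thus applies to these runs too.

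The run of higher bins with the most members was at chr17:23500001-25200000, with 6 of 17 tested bins against 0.91% of all bins, where the Kctd5 bait lies. Calls there summed to 1087 and 1103 in WT, 544 and 829 with the 36kb deletion and 1026 and 1035 with the 42kb deletion. In Md with the 36kb deletion they summed to 600 and 684, so that all 4 libraries with the 36kb deletion lay below the PA2 WT and 42kb libraries. Md WT is not given beside them, so tissue and deletion cannot be told apart for the Md values. At chr14:70100001-70500000 all 4 tested bins rose, with 113 and 125 against 210 and 243 calls and 188 and 210 in WT.

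Among single bins, the largest fall outside the Hoxa window was at chr2:56900001-57000000, with 1 and 2 calls in WT, 8 and 11 with the 36kb deletion and 0 and 0 with the 42kb deletion. Its adjusted p was 0.00327 by limma, and in Md with the 36kb deletion it held 10 and 12. The bin chr14:51700001-51800000, which holds the ribonuclease gene Ang4, held 18 and 19 calls in WT, 12 and 12 with the 36kb deletion and 0 and 3 with the 42kb deletion (adjusted p = 0.0266). The largest rise was at chr9:57600001-57700000, which holds Csk, a kinase that restrains Src kinases, with 7 and 5 calls in WT, 1 and 1 with the 36kb deletion and 9 and 11 with the 42kb deletion (adjusted p = 0.022). At chr15:86000001-86100000, which holds the planar cell polarity gene Celsr1, the counts were 5 and 7 in WT, 1 and 2 with the 36kb deletion and 12 and 14 with the 42kb deletion. The fall at Ang4 did not pass without 42kb replicate 1 or without 36kb replicate 1. The rises at Csk and Celsr1 did not pass without 42kb replicate 1, 42kb replicate 2 or 36kb replicate 1, each left out in turn.

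The pairs with the highest scores that split the deletions joined different chromosomes. With the 42kb deletion, the bait of the potassium channel gene Kcnk1 on chromosome 8 was joined to chr9:119462720-119463620 with scores of 139.02 and 137.79, and this pair scored 256.77 and 292.9 in WT and was called in neither 36kb library. With the 36kb deletion, the bait of Esp8, of the exocrine gland peptide family, on chromosome 17 was joined to chr7:40034041-40038159 with scores of 552.69 and 992.25, with 402.29 and 347.06 in WT and no call with the 42kb deletion. Of the 374415 pairs called in at least 1 of the 4 libraries, 353287 lay within a chromosome. Of the 11875 pairs in both 42kb libraries and neither 36kb library, 121 joined different chromosomes, against 498 of 10135 the other way. In both WT libraries, 24.1% of the former kind and 28.4% of the latter kind were called, and 50.2% and 45.1% in neither.

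Bins were then set out by their number of protein-coding starts, beside the 71 higher and 81 lower of all 7800. With no start, 5 of 2018 bins were higher and 24 lower, with a median log2 change of -0.13. With 1 to 2 starts, 15 of 3570 were higher and 31 lower, with a median of -0.01. With 3 to 5 starts, 34 of 1815 were higher and 20 lower, with a median of 0.13. With 6 or more, 17 of 397 were higher and 6 lower, with a median of 0.26. Bins with 6 or more starts held 10.3% and 12.5% of the calls in bins with the 36kb deletion, 13.0% and 12.9% with the 42kb deletion and 12.6% and 12.5% in WT. Replicate 1 of the 36kb deletion stood apart from the other 5 libraries. Its part in the genome-wide counts was not tested beyond leaving it out: without it the bins past the threshold numbered 68 and the baits 36.

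None of the gene lists had a bait past the adjusted threshold in limma. In each of the other Hox clusters, 0 of 12 Hoxb baits, 0 of 9 Hoxc baits and 0 of 11 Hoxd baits tested passed, with median log2 changes of -0.02, 0.16 and -0.01. Of the second arch list, 0 of 17 passed, with a median of -0.11, and of the first arch list 0 of 19, with a median of 0.03. Of the neural crest list 0 of 14 passed, of the skeletal list 0 of 17 and of the Polycomb list 0 of 12. The lists for contact architecture, Hox cofactors, frontonasal, epithelial, endothelial, muscle, neuronal, blood and housekeeping genes had 0 of 6, 6, 10, 5, 6, 9, 5, 8 and 13. At an unadjusted p under 0.05 the lists had 0 to 3 baits each, with 3 in the skeletal list, 2 each in the second arch, architecture and epithelial lists, and at most 1 in every other list.

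Some members of these lists had values apart without passing. Ctcf, which encodes the protein that anchors chromatin loops, had 3 and 9 calls in WT, 1 and 3 with the 36kb deletion and 10 and 9 with the 42kb deletion (log2 change 2.05, SE 0.74, adjusted p = 0.223). Sp7, a bone transcription factor gene, had 9 and 8 against 23 and 15 at the bait of its end (log2 change 1.01, adjusted p = 0.155), and 15 and 42 against 24 and 41, which overlapped, at the bait it shares with Aaas. Col1a1, of collagen I, had 6 and 12 against 16 and 20 (adjusted p = 0.198), and Runx2, a regulator of bone formation, 4 and 2 against 7 and 6 (adjusted p = 0.306). Dlx5 and Dlx6, arch patterning genes, had 54 and 71 against 71 and 60, and 51 and 45 against 31 and 46, and both overlapped. The Ezh2 bait had 5 and 4 against 3 and 4 calls and was under the mean needed for the fit.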

How the data were processed

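The deposited files list, per library, called pairs of HindIII fragments with a score; per the file names the score comes from CHiCAGO, and all values were 5 or more. Per the submitters' processing notes, the build is GRCm38 (mm10); aligner, caller version and settings: not given in the sources used here. Groups came from the sample titles; descriptions number these libraries as biological replicates. The genotype field of 36kb replicate 2 holds another title.

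Calls per bait, and per 100 kb bin of other ends, were counted, pairs of 2 baits at both. Log2 of (calls + 0.5) per cis call was fitted over 24 libraries by limma (3.58.1, R 4.3.3) with 12 group means and a trended empirical Bayes prior, for features with a mean of 5 or more, with Benjamini-Hochberg adjustment. The scripts were tested on simulated data. Baits took names of protein-coding genes with a RefSeq start inside, else an annotated end, else within 1 kb (16571 of 22203). Named were the Hoxa and window baits, except some that are not reported here, the 10 largest named rises and falls past the threshold, list members past it, Ezh2, and bins and pairs by like rules; Ctcf, Sp7, Col1a1, Runx2, Dlx5 and Dlx6, and the far-side, near-side and stretch regions, were chosen after their values were seen. Members and lists were chosen with earlier results of these data known.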

Additional observations from a re-analysis of the deposited data

How the results depend on the processing

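The Hoxa2 difference kept its sign and did not pass under any alternative run (log2 -1.23 to -0.68, the latter without 36kb replicate 1). The fall of the bin that holds the stretch passed in all but 1: with the 4 libraries alone it was -4.32 with an adjusted p of 0.097. Changed baits, 44 in the reported fit, numbered 2 with the 4 libraries alone, 2 with the 6 PA2 libraries, and 36 to 185 with 1 library left out. Changed bins, 152 as reported, numbered 74 with no filter, 0 with the 4 libraries alone (859 at an unadjusted p under 0.05), 31 with the 6 PA2 libraries, 82 at a score of at least 7, and 55 to 435 with 1 library left out. At a score of at least 7, pairs in both libraries of 1 deletion and neither of the other fell to 1634 (42kb) and 1736 (36kb), the mean difference in Hoxa calls to the stretch was -9.5 and that of near-side calls to the far side 6.0. These 2 differences, -14.0 and 20.5 as reported, were -14.0 and at least 17.0 with 1 library left out. The difference in the window's share of cis calls had no fixed sign (-0.00205 percentage points; -0.0331 to 0.0290 with 1 library left out, positive without 42kb replicate 2, at 0.0023). Nor had that in all Hoxa calls: 2.0, but -0.5 at a score of at least 7, -10.0 without calls between 2 baits, and -22.5 to 26.5 with 1 library left out. The causes were not tested. Replicate numbers mark no shared embryo or batch (correlation of same-numbered deviations 0.01); with the replicate block Hoxa2 was -0.96 (adjusted p = 0.191) and 42 baits passed. Counting each pair of 2 baits once, chosen after seeing the data, gave 49 baits. Without read counts, a missing call may be a contact just under the score threshold.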
